A study of Mus musculus with 3 samples.

Results

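The nuclear genes of oxidative phosphorylation (OXPHOS) were examined for CTCFL binding at their promoters in mouse embryonic stem (ES) cells. Members were the protein-coding genes of the GENCODE annotation on mm9 whose symbols begin with Ndufa, Ndufb, Ndufc, Ndufs, Ndufv, Sdha to Sdhd, Uqcr, Cox4 to Cox8 or Atp5. This gave 94 gene entries of 22359 protein-coding genes on the nuclear chromosomes. The entries carry 93 symbols, since Ndufb8 has 2 overlapping entries, and they lie on 19 chromosomes. The rule used symbols only and no binding value. It also takes in genes that encode no subunit, namely the assembly factors Ndufaf1 to Ndufaf4, Sdhaf1 and Sdhaf2, the genes Atp5s and Atp5sl, the copy Atp5l-ps1, and Cox4nb, which is the neighbor of Cox4i1. These 10 were counted as a class of their own, and 8 tissue isoform genes as another, which left 76 subunit entries.

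CTCFL, also called BORIS, is the testis-specific paralog of CTCF. The ES cells carried rtTA from the ROSA26 locus and a TRE-driven CTCFL-V5-GFP transgene with neomycin selection, so that binding is that of a tagged, ectopically expressed protein in a cell type that is not a germ cell. In the induced condition the cells received doxycycline for 3 days, were sorted for GFP and were precipitated with V5 antibody; cells of the same kind without doxycycline and without sorting were precipitated with V5 antibody as control, and a CTCF antibody library was made as well. Each condition had 1 library, and the peak positions of the induced cells alone were used. The list gives a start and an end for each of 7436 peaks, with no height or read number, so that width is the only measure of size in the list and says nothing of the reads behind a peak. Without replicates no spread could be computed. The list is longer than the set of CTCFL sites that the study describes, and how that set relates to it is not given in the sources used here, so all shares of genes with a peak refer to the longer list. Expression was not measured in these files, so the cell type could not be checked against markers.

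OXPHOS takes place in the inner mitochondrial membrane. Complex I (NADH dehydrogenase) and complex II (succinate dehydrogenase) pass electrons to ubiquinone, complex III (the cytochrome bc1 complex) passes them on to cytochrome c, and complex IV (cytochrome c oxidase) hands them to oxygen. Complexes I, III and IV pump protons, and complex V (ATP synthase) uses the proton gradient to make ATP. Most subunits are encoded in the nucleus, by housekeeping genes that are spread over the genome, and the nuclear respiratory factor NRF1, ETS factors such as GABP and the factor YY1 are known regulators of many of them.

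A gene was counted as having a promoter peak if the midpoint of a CTCFL peak lay from -2 kb to +1 kb of a transcription start site (TSS) of one of its protein-coding transcripts. The peaks of 5 members held a match to the CTCF-like consensus with at most 1 mismatch, and 4 of these sites are shown to give the sequence that the matches share. The consensus has 14 positions, counted from 1 at its 5′ end, of which 10 are fixed. It has C at positions 1, 2, 12 and 14, A at position 6, and G at positions 7, 8, 10, 11 and 13, and it was searched on both strands. Capitals mark the match, each sequence is read 5′ to 3′ along the strand of the match, and coordinates are on mm9.
Ndufa6, chr15:82184852-82184881, plus strand: ctgaggaaCCACCAGGAGGCGCagcgtcga
Ndufaf4, chr4:24825166-24825195, plus strand: cctcccggCCACCAGGGGGCGAcgagcgcg
Ndufb10, chr17:24861433-24861462, minus strand: gctggggaCCACAAGGGGGTGCtcgagagg
Uqcrc1, chr9:108838621-108838650, plus strand: cttgctgcCCAACAGGGGGCGActgagcac
The match of Ndufa6 was exact. Those of Ndufaf4 and Uqcrc1 each carried C14A, and that of Ndufb10 carried C12T. In Ndufa6 the match was on the strand opposite to the gene, and in the other genes shown it was on the strand of the gene.

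To show the setting of these sites, the 220 bases directly upstream of the TSS are given for Ndufa6 of complex I and Uqcrc1 of complex III. They are printed along the strand of the gene and end at the base before the TSS, with the consensus match in capitals.
Ndufa6, chr15:82184722-82184941, minus strand: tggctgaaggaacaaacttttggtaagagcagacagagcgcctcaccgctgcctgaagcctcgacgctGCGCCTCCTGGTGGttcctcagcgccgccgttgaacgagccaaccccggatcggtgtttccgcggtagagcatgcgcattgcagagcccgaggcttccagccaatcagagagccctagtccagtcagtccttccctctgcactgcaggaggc
Uqcrc1, chr9:108838441-108838660, plus strand: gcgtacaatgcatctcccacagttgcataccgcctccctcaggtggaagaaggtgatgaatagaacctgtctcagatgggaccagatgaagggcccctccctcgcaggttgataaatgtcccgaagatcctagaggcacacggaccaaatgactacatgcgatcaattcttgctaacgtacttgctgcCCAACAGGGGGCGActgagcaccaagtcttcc
The center of the match lay at -145 bp from the TSS in Ndufa6. It lay at -26 bp in Uqcrc1.

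A promoter peak was found at 16 of the 94 OXPHOS genes (17%, 95% Wilson interval 10.8 to 25.9%). Over all protein-coding genes it was found at 2512 of 22359 (11.2%), and this background lay within the interval of the members, just above its lower bound. Of 8 other settings for the interval, the TSSs and the peaks, the background lay within the interval of the members in 5 and below it in 3. It was below with 1 TSS per gene (10% against 10.8 to 25.9%), within 500 bp of the TSS (8.19% against 9.92 to 24.7%) and with any overlap (11.7% against 13.3 to 29.4%). The intervals cover counting error only, and with 1 library no test was made. Each of the 16 genes had a single promoter peak, no peak was shared by 2 members, and the peaks lay on 10 chromosomes. Of the 16, 12 belonged to complex I by symbol, 2 to complex III and 2 to complex V, whereas complexes II and IV had none.

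**Figure D1:**
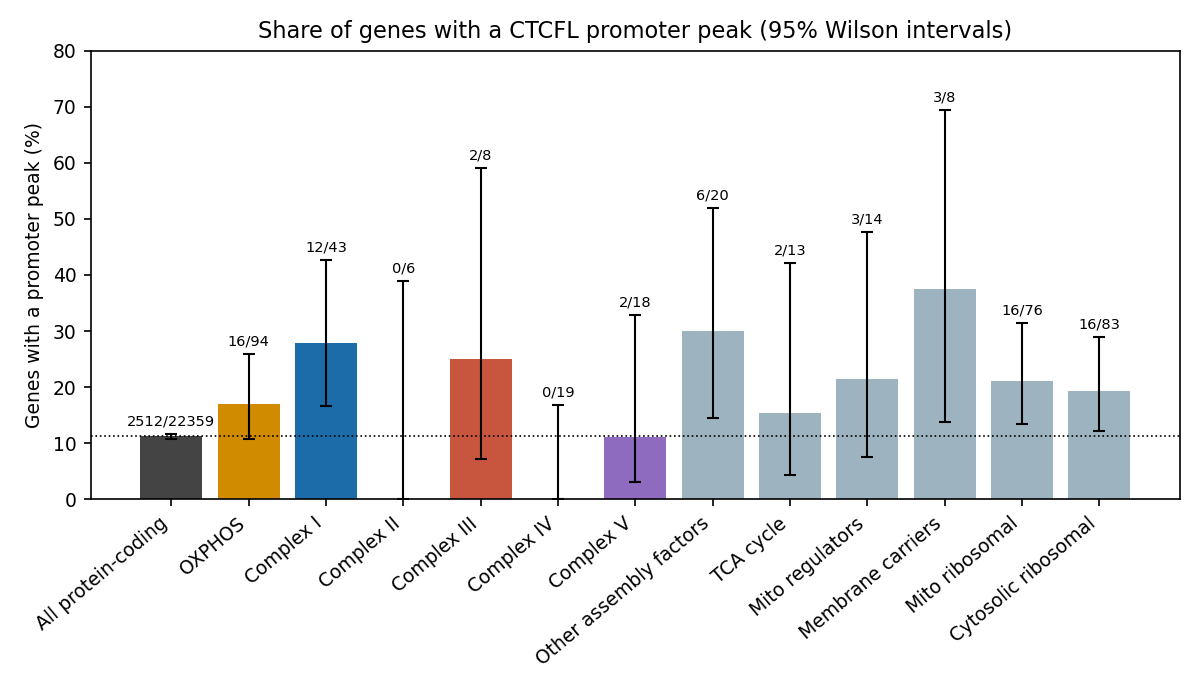
Bars give the share of genes with a CTCFL promoter peak (y axis, %) for all protein-coding genes, the OXPHOS genes, each complex by symbol prefix, and other mitochondrial and ribosomal gene lists; lines are 95% Wilson intervals, numbers are genes with a peak over all genes of the list, and the dotted line marks the 11.2% of all protein-coding genes. Complex I reaches 27.9%, and complexes II and IV are at 0.

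In complex I, which oxidizes NADH, 12 of 43 genes had a promoter peak (27.9%, 16.7 to 42.7%), and the background of 11.2% lay below this interval. Without assembly factors and the isoform gene Ndufa4l2 the count was 10 of 38 (26.3%, 15 to 42%).

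Ndufv1, which binds NADH and FMN, had a peak of 627 bp with an offset of -104 bp. At Ndufv2, an iron-sulfur subunit, the offset was -395 bp and the width 557 bp. At Ndufs8, which binds iron-sulfur clusters, the midpoint lay 256 bp downstream of the TSS in an intron, and the width was 424 bp. Ndufs1 and Ndufs7, which also encode iron-sulfur subunits, and Ndufs3, which encodes a subunit of the same arm, had no promoter peak. Their nearest peaks lay at -4353 bp (Ndufs1), 44547 bp (Ndufs7) and -6394 bp (Ndufs3) from the TSS.

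Among the accessory subunits, Ndufa6 had the widest peak of all members. It spanned 82184505 to 82185230 on chromosome 15 (726 bp) and ranked 530 of 7436 by width, and its midpoint at -147 bp lay 2 bp from the exact consensus match. At Ndufab1, the mitochondrial acyl carrier protein, the offset was -11 bp, at Ndufb10 it was 27 bp and at Ndufb7 it was 34 bp. These peaks were 533, 316 and 547 bp wide and each spanned the TSS. The peak at Ndufa12 lay 329 bp downstream of the TSS in an intron, and it was 345 bp wide. Ndufa7 had the most distant peak, at -1911 bp, where the TSS of Kank3 was nearer to the midpoint (537 bp). This was the sole member peak for which another gene had the nearest TSS, and its best match to the consensus had 3 mismatches.

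Of the complex I assembly factors, Ndufaf4 had a peak from 24824904 to 24825555 on chromosome 4 (652 bp) with its midpoint at the TSS (offset 0). Ndufaf3, which acts with Ndufaf4 in assembly, had a peak of 561 bp with an offset of 321 bp, in a UTR exon. Both partners thus had a promoter peak. Ndufaf1 and Ndufaf2 had none. Their nearest peaks were 115680 and 56235 bp away. Over the whole class of members that encode no subunit, 2 of 10 had a promoter peak (20%, 5.67 to 51%). The background of 11.2% lay within this interval.

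The remaining genes counted under complex I by symbol, without a check of the complex each protein belongs to, had no promoter peak. In the Ndufa series these were Ndufa1, Ndufa2, Ndufa3, Ndufa4, Ndufa5, Ndufa8, Ndufa9, Ndufa10, Ndufa11 and Ndufa13. In the Ndufb series they were Ndufb2, Ndufb3, Ndufb4, Ndufb5, Ndufb6, Ndufb8, Ndufb9 and Ndufb11, and in the others Ndufc1, Ndufc2, Ndufs4, Ndufs5, Ndufs6 and Ndufv3.

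In complex III, 2 of 8 genes had a promoter peak (25%, 7.15 to 59.1%). They were Uqcrc1 and Uqcrc2, which encode the core proteins of the matrix arm. The Uqcrc1 peak, from 108838380 to 108838794 on chromosome 9, was 415 bp wide, below the list median of 454 bp, and had an offset of -74 bp. The Uqcrc2 peak, from 127778335 to 127778949 on chromosome 7, was 615 bp wide with an offset of -48 bp. Its best match to the consensus carried C12G and G13A. The Rieske protein gene Uqcrfs1 and the small subunit genes Uqcrb, Uqcrh, Uqcrq, Uqcr10 and Uqcr11 had no promoter peak, and their nearest peaks were 14367 to 128155 bp from the TSS.

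In complex V, 2 of 18 genes had a promoter peak (11.1%, 3.10 to 32.8%), which is close to the background. Atp5k, which encodes the small membrane subunit e, had a peak from 108863233 to 108863860 on chromosome 5 (628 bp, offset -80 bp). Atp5g2, which like Atp5g1 and Atp5g3 encodes the proton-carrying c subunit, had a peak from 102501269 to 102501778 on chromosome 15 (510 bp, offset -46 bp). The best matches in these peaks had 2 mismatches each, C1G and C14G at Atp5k and G10C and G11T at Atp5g2. The paralogs Atp5g1 and Atp5g3 had no promoter peak, and their nearest peaks lay 94441 and 463589 bp away. Among the genes of the catalytic head, Atp5a1, Atp5b, Atp5c1, Atp5d and Atp5e, none had one. At Atp5b, the catalytic beta subunit, a peak lay inside the gene at 3293 bp from the TSS. The stalk and membrane subunit genes Atp5f1, Atp5h, Atp5j, Atp5j2, Atp5l and Atp5o also lacked a promoter peak, as did Atp5s, Atp5sl and Atp5l-ps1.

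In complex II, none of 6 genes had a promoter peak, namely Sdha, Sdhb, Sdhc, Sdhd and the assembly factors Sdhaf1 and Sdhaf2 (0%, 0 to 39%). In complex IV, none of 19 had one (0%, 0 to 16.8%), and the background of 11.2% lay within both intervals. The genes counted as complex IV subunits by symbol were Cox4i1, Cox5a, Cox5b, Cox6a1, Cox6b1, Cox6c, Cox7a2, Cox7a2l, Cox7b, Cox7c and Cox8a. Of these, Cox5b had the nearest peak, at -7177 bp. Cox4nb, counted by its symbol, had no promoter peak. The tissue isoform genes Cox4i2, Cox6a2, Cox6b2, Cox7a1, Cox7b2, Cox8b, Cox8c and Ndufa4l2 also lacked a promoter peak. Among them Cox6b2 and Cox8c are known for expression in testis, and their nearest peaks were 33364 and 193901 bp away.

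**Figure D2:**
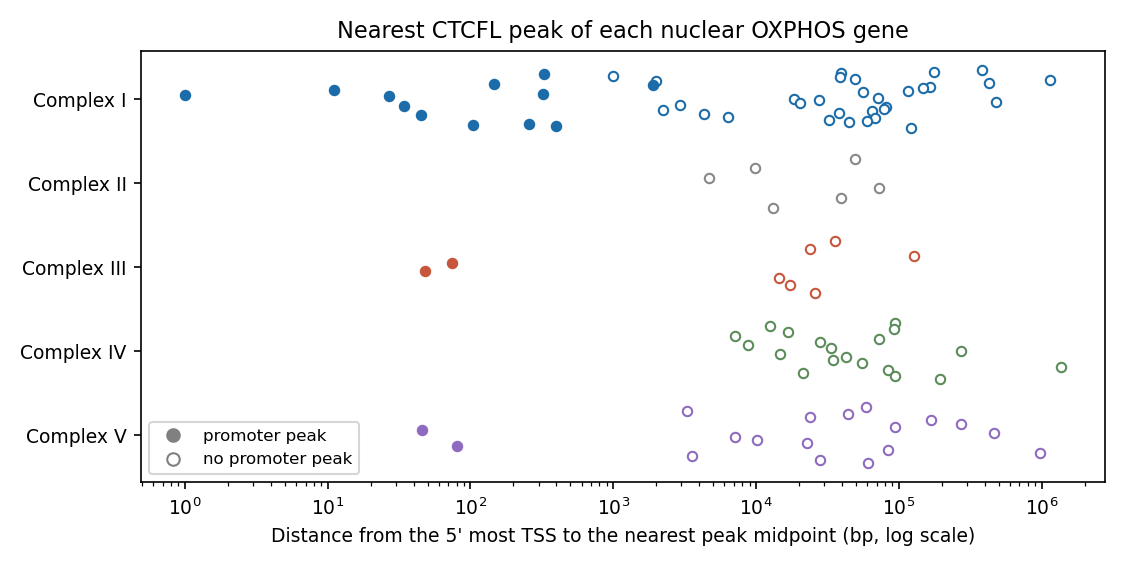
Each point is 1 OXPHOS gene entry, placed by the distance from its 5′ most TSS to the midpoint of the nearest CTCFL peak (x axis, bp, log scale; a distance of 0 is drawn at 1) and by complex (y axis); filled points have a promoter peak. The 78 entries without one lie at a median of 43504.5 bp, and no filled point is seen for complexes II and IV.

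Some members lay just outside the interval. Ndufa13 had a peak at 1001 bp, Ndufa4l2 at -2004 bp and Ndufb9 at -2219 bp, whereas Ndufa7 was just inside at -1911 bp. Counting any overlap of a peak with the interval added these 3 genes, to 19 of 94 (20.2%). With the TSSs of all transcripts Atp5b was added, with an offset of 336 bp. Of the 78 entries without a promoter peak, 13 had a peak within 10 kb of the 5′ most TSS and 5 had a peak inside the gene. The latter were Atp5b, Atp5o, Ndufa13, Ndufb6 and Sdhaf2.

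The member peaks lay close to the start of transcription. The median offset was -45.5 bp and the quartiles were -86 and 28.75 bp, and the extremes were Ndufa7 at -1911 bp and Ndufa12 at 329 bp. Of the 16 midpoints, 10 were upstream of the TSS, 5 downstream and 1 at it. The TSS was inside the peak in 11 genes. Within 100 bp of the TSS lay 9 of 16 midpoints (56.2%), and within 500 bp lay 15. For all genes with a promoter peak, the median offset was -54 bp, the quartiles were -295 and 156.25 bp, and 27.9% lay within 100 bp. The median distance without regard to sign was 77 bp in OXPHOS genes and 228 bp in all.

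**Figure D3:**
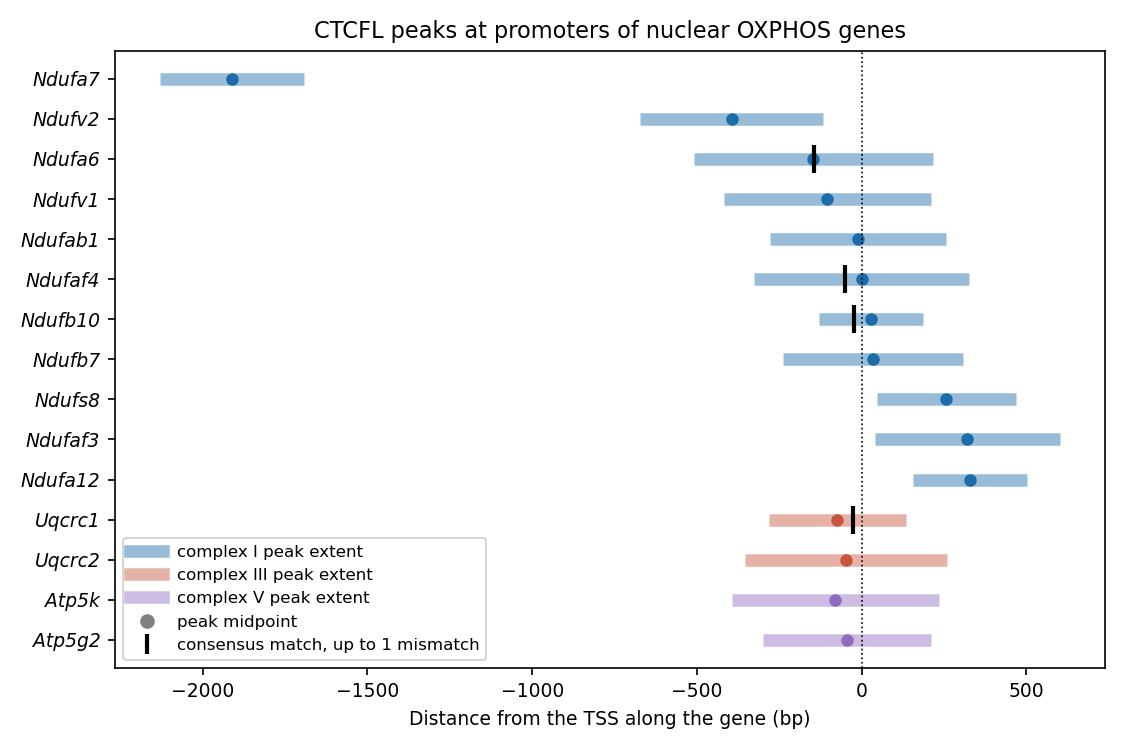
Rows are 15 of the 16 OXPHOS genes with a promoter peak; bars give the extent of the peak and dots its midpoint along the gene (x axis, bp from the TSS, upstream negative), colored by complex, and black ticks mark the best consensus match where it has at most 1 mismatch. Apart from Ndufa7, at -1911 bp, all midpoints shown lie between -395 and 329 bp, and 4 peaks carry a tick.

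The member peaks measured 316 to 726 bp, with a median of 552 bp, and the median of the peaks at all genes with a promoter peak was 516 bp. At or above the list median of 454 bp were 11 of 16 (68.8%), against 65.8% of the promoter peaks of all genes. To see repeated sequence, every window of 36 bases was searched in the genome. All windows were unique in 15 member peaks, and in the Ndufab1 peak 72.1% were.

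Of the 16 member peaks, 5 held a consensus match with no more than 1 mismatch (31.2%, 14.2 to 55.6%). The share was 53.6% for promoter peaks of other protein-coding genes, which lay within the interval of the members. Restricted to the middle 200 bp of each peak, the shares were 31.2 and 40.7%. Exact matches were found in 12.5% of member peaks and in 13.6% of the others. Of the other 11 member peaks, 10 had a best match with 2 mismatches and Ndufa7 with 3. In the 5 peaks with a match it lay at a median of 48 bp from the midpoint.

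A match did not need a peak. In the window of 300 bp on either side of the 5′ most TSS, 9 of 78 members without a promoter peak held a match at up to 1 mismatch (11.5%), as did 7 of 16 with a peak (43.8%). The 7 include Ndufa12 and Ndufs8, where the match lay outside the listed peak. The share was 15.0% over all protein-coding genes. Among CpG-rich members it was 27.3% with a peak (3 of 11) and 14.3% without (6 of 42), compared with 42.7 and 24.5% of all CpG-rich protein-coding genes. The median GC content of these promoters was 57.1 and 59.0% in the members, and 62.9 and 62.7% in all CpG-rich genes. The shares with a match were therefore not compared at equal GC content. Such a match was found in the unbound Ndufa10, Ndufb2, Ndufb6, Ndufb9, Ndufc1, Uqcrb, Cox5b, Atp5g1 and Atp5sl, each with 1 mismatch. The sites of Cox5b and Atp5g1 are shown for comparison with those inside peaks, with the match in capitals.
Cox5b, chr1:36748228-36748257, plus strand: cgccacgcCCCGGAGGCGGCGGgagtctgc
Atp5g1, chr11:95937112-95937141, minus strand: gcctttatCCGCAAGGAGGCGGgaattgcc
Both carried C14G. Their centers were at -90 bp from the TSS in Cox5b and -142 bp in Atp5g1.

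Promoters of members were also grouped by sequence and orientation. A promoter was called CpG-rich if the 500 bp on either side of the 5′ most TSS had a GC content of at least 55% and an observed over expected CpG ratio of at least 0.6. This held for 53 of 94 members (56.4%) and for 38.8% of all protein-coding genes. Of the CpG-rich members 11 had a promoter peak (20.8%, 12 to 33.5%), compared with 18.6% of all CpG-rich protein-coding genes. Of the 41 members whose promoters were not CpG-rich, 5 had a promoter peak (12.2%, 5.32 to 25.5%). This interval holds the 6.59% of all such protein-coding genes. All of these 5 were in complex I. Within complex I the share was alike in CpG-rich promoters (7 of 25, 28.0%) and in the others (5 of 18, 27.8%). The interval of the former, 14.3 to 47.6%, holds the 18.6% of all CpG-rich genes. The interval of the latter, 12.5 to 50.9%, lies above the 6.59% of all protein-coding genes whose promoters were not CpG-rich. These 5 genes with a peak each missed a single cutoff. GC content was 51.5% at Ndufa12, 53.0% at Ndufa7 and 54.2% at Ndufaf4, and the CpG ratio was 0.57 at Ndufb10 and 0.56 at Ndufs8. The 2 groups were not matched for GC or CpG content, so the comparison does not separate complex I from promoter composition.

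A promoter was called bidirectional if the TSS of a protein-coding gene on the other strand lay within 1000 bp upstream. This held for 26 of 94 members (27.7%) and for 9.57% of all protein-coding genes. It includes the pairs Cox4i1 with Cox4nb, Atp5j with Gabpa and Sdhd with Timm8b. Of the 26, a promoter peak was counted at Ndufa7 alone (3.85%, 0.682 to 18.9%), whose divergent partner is Rps28 at 29 bp and whose peak was the distant one at -1911 bp. Over all protein-coding genes 16.4% of bidirectional promoters had a peak, which lay within this interval. Of the 68 unidirectional members 15 had a peak (22.1%, 13.8 to 33.3%), against 10.7% of all. In unidirectional CpG-rich promoters the counts were 11 of 34 members (32.4%, 19.1 to 49.2%), compared with 18.8% of all such genes. In bidirectional CpG-rich promoters they were 0 of 19 (0 to 16.8%), compared with 17.3%. The upper bound lies close to that background, and the 19 are not all independent. They hold both Cox4i1 and Cox4nb, whose TSSs lie 178 bp apart and which were counted as separate entries. With a distance of 500 or 2000 bp for the partner, which was set after seeing the data, 1 of 24 and 1 of 28 bidirectional members had a peak. Over all protein-coding genes the shares at these distances were 15.6 and 16.6%. Both lay within the intervals of the members, 0.739 to 20.2% and 0.633 to 17.7%.

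**Figure D4:**
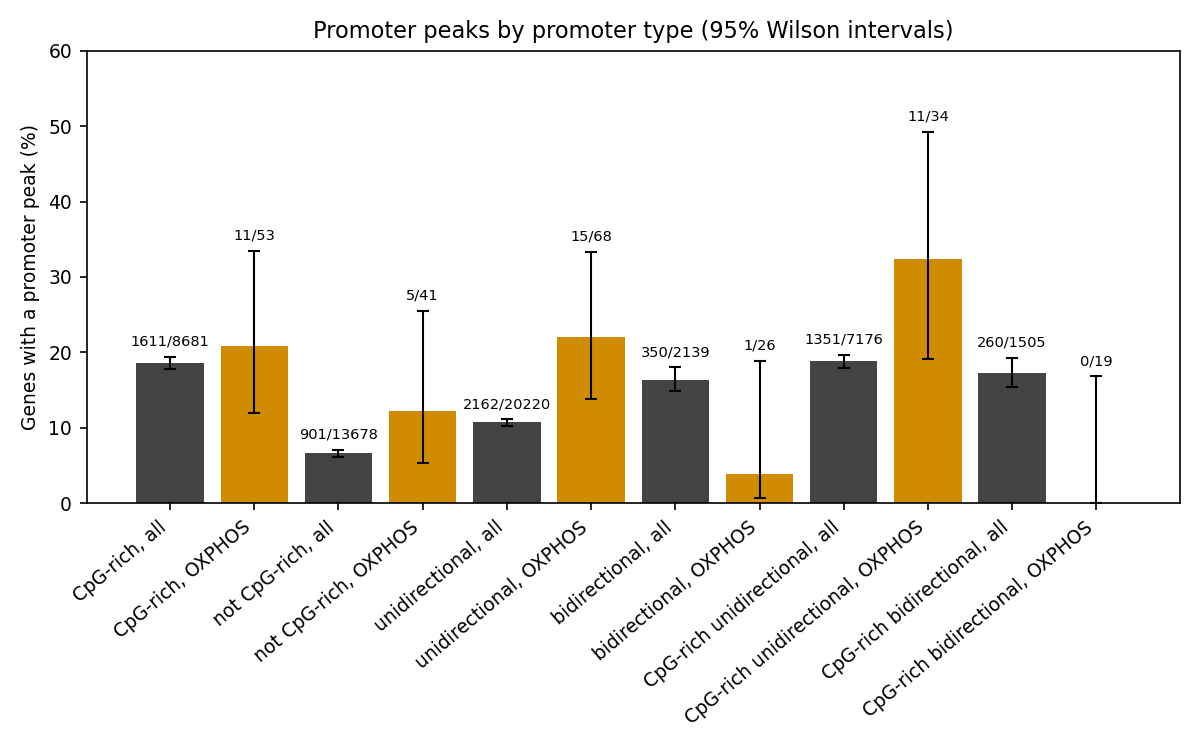
Bars give the share of genes with a CTCFL promoter peak (y axis, %) by promoter type, for all protein-coding genes (dark) and OXPHOS genes (orange); lines are 95% Wilson intervals and numbers are genes with a peak over all genes of that type. OXPHOS genes with a peak are found in 15 of 68 unidirectional promoters and 1 of 26 bidirectional ones.

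Short motifs of the known OXPHOS regulators were searched on both strands in the same window of 300 bp on either side of the TSS. They were GCATGCGC for NRF1, AAGATGGC for YY1 and CCGGAAG for ETS factors. The NRF1 letters were present in 6 of 16 members with a promoter peak (37.5%) and in 8 of 78 without (10.3%). Among CpG-rich members alone they were present in 4 of 11 with a peak (36.4%) and 4 of 42 without (9.52%). Over all CpG-rich protein-coding genes the shares were 7.26% with a peak and 7.21% without, and over all genes the share was 4.26%. The 6 members were Ndufa6, Ndufs8, Ndufaf4, Uqcrc1, Atp5k and Atp5g2. In the upstream sequence of Ndufa6 printed above, the letters stand between the consensus match and the TSS. The YY1 letters were present in 4 of 16 with a peak (25%) and 15 of 78 without (19.2%), and in 5.76% of all genes. The ETS letters were present in 3 of 16 (18.8%) and 25 of 78 (32.1%), and in 15.6% of all genes. The core letters AGGNGGC of the CTCF motif, which form part of the consensus above, were found in 62.5% of members with a peak, 57.7% of those without and 51.3% of all genes. In CpG-rich promoters alone this order was reversed, with 63.6% of members with a peak, 66.7% without and 69.7% of all genes. In the same CpG-rich groups the ETS letters were in 18.2, 42.9 and 24.8%, and the YY1 letters in 36.4, 14.3 and 7.89%. These matches are descriptions of sequence, and their part in binding was not tested.

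Other genes that serve mitochondrial respiration were taken from lists. Of 20 assembly factors outside the symbol prefixes, 6 had a promoter peak (30.0%, 14.5 to 51.9%). They were Atpaf1, which assembles the ATP synthase head, Ttc19 of complex III, and Cox11, Cox15, Sco1 and Sco2, which serve the supply of copper or heme to complex IV. The widest of these 6 peaks was at Sco2 (1714 bp, offset -1463 bp) and the nearest to a TSS was at Sco1 (offset -20 bp). In the same list Cox10, Cox16, Cox17, Cox18, Cox19 and Surf1 had no promoter peak. Acad9, Ecsit, Foxred1, Nubpl, Atpaf2, Bcs1l, Lrpprc and Tmem70 also had none. The background of 11.2% lay below the interval of this list. Of its CpG-rich genes 5 of 13 had a peak (38.5%, 17.7 to 64.5%), and this interval holds the 18.6% of all CpG-rich genes. Cycs, the somatic cytochrome c, had a peak of 757 bp at -285 bp, and the testis form Cyct had no promoter peak.

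Among 14 regulators of mitochondrial genes, 3 had a promoter peak (21.4%, 7.57 to 47.6%). These were Tfam, the packaging factor of mitochondrial DNA (offset -201 bp), the mitochondrial transcription gene Polrmt (-50 bp), and Tfb1m (52 bp). Tfb2m and the genes of NRF1 and YY1, Nrf1 and Yy1, had none. In the tricarboxylic acid cycle 2 of 13 genes had a peak (15.4%, 4.33 to 42.2%), Idh3g at -71 bp and Fh1 at -596 bp. The background of 11.2% lay within this interval and within that of the regulators. Of 8 membrane carriers 3 had a peak (37.5%, 13.7 to 69.4%), namely the ADP/ATP carrier Slc25a5, the outer membrane channel Vdac3 and Ucp2. The background lay below this interval. Of the CpG-rich carriers 2 of 7 had a peak (28.6%, 8.22 to 64.1%), and this interval holds the 18.6% of all CpG-rich genes. Among mitochondrial ribosomal protein genes the count was 16 of 76 (21.1%, 13.4 to 31.5%). Among cytosolic ribosomal protein genes it was 16 of 83 (19.3%, 12.2 to 29.0%). The background of 11.2% lay below both intervals. The intervals of these ribosomal lists overlap that of the OXPHOS genes. In CpG-rich promoters the share was 32.5% for mitochondrial ribosomal proteins, 17.5% for cytosolic ones and 20.8% for OXPHOS genes. Over all CpG-rich protein-coding genes it was 18.6%. That value lay within the intervals of the cytosolic list (9.82 to 29.4%) and the OXPHOS genes (12 to 33.5%). It lay below the interval of the mitochondrial list (20.1 to 48%).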

How the data were processed

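CTCFL binding was measured by ChIP-sequencing with V5 antibody in ES cells. Reads of 36 bp were aligned by the authors with ELAND. BOWTIE on mm9 and MACS are described for published data sets, and the procedure and threshold behind the deposited list, a GBrowse export on mm9, are not given in the sources used here. Its values are starts and ends in bp. No column was left unmapped (0 columns), and the CTCF and non-induced libraries were not used here.

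Midpoints were compared with TSSs of protein-coding transcripts of GENCODE vM1, made on the same build (NCBIM37), and offsets were signed along the gene. Gene entries without a protein-coding transcript were left out. Shares carry 95% Wilson intervals. The consensus is the form used in an earlier analysis of the same list. Named genes were all members with a promoter peak, the 3 widest peaks per complex in full, members without a peak by class, and the genes with a peak in lists with at most 12 of them; 1 member is not reported here by name or value and enters the counts only. Members, lists and comparisons were chosen with earlier results of these data known. Cox4nb and Atp5l-ps1 were classed as non-subunits after the annotation was read. Ribosomal lists were narrowed after a first pass had taken in pseudogene copies, and left out kinases. Procedures were tested on simulated data. Python 3.11.15, numpy 2.4.6, scipy 1.17.1, pysam 0.24.0 and matplotlib 3.10.9 were used.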

Additional observations from a re-analysis of the deposited data

How the results depend on the processing

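No paired analysis was possible because no condition was repeated. Of 59 alternatives over 10 results, 52 stayed within the 95% interval of the reported share or, for the median offset, within the quartiles of the offsets, and 7 moved. This tally depends on group size and does not measure stability. The interval was 10.8 to 25.9% for the OXPHOS share but 10.8 to 11.7% for all protein-coding genes. Complexes II and IV had no promoter peak in any setting tried for them. The share of OXPHOS genes with a promoter peak was 11.7% when peaks narrower than the list median were dropped, where Ndufa12, Ndufa7, Ndufb10, Ndufs8 and Uqcrc1 were lost, and 20.2% with any overlap. The share of all protein-coding genes moved to 8.19% within 500 bp of the TSS, 10.3% from -1 kb to +1 kb, 10% with 1 TSS per gene, 12% with the TSSs of all transcripts, 7.51% with wide peaks only and 10.2% with the nearest TSS only, since each of these settings changes the interval, the peaks or the TSSs that count. Within 500 bp the OXPHOS share was 16%. The background fell below the interval of the OXPHOS share in 3 of these settings, namely 1 TSS per gene, within 500 bp and any overlap. Without mismatch the share of member peaks with a consensus match was 12.5%. Leaving out Cox4nb and Atp5l-ps1, chosen after seeing the data, gave 17.4%. No stricter peak threshold could be set because the list holds no score, and with 16 members bound the counts per complex are small.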
